A study of Mus musculus with 3 samples.

Results

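The collagen chain genes of mouse skin were taken as all gene symbols of the form Col, number, a, number, leaving out Col17a1, with at least 20 unique molecular identifiers (UMIs) summed over the 3 libraries of the series. The pattern matched 44 of 31053 genes, and 41 of these were members. Col17a1, which encodes a hemidesmosome protein of basal keratinocytes, was left out by the rule. Just under the threshold lay Col9a1 with 11 and Col10a1 with 10 UMIs, and just inside it Col2a1 with 24, Col22a1 with 34 and Col19a1 with 36. The series holds droplet single-cell libraries of 3' transcripts from the dorsal skin of C57BL/6 mice aged 7 weeks, with 1 library per group. The IMQ+celastrol library came from mice given celastrol, a plant triterpenoid, together with imiquimod. The IMQ library came from mice given imiquimod, a Toll-like receptor agonist used on mouse skin as a model of psoriasis. The normal library came from control mice treated with glycerin. No genotype other than the strain was named. The number of mice per library, their sex, the dose, the route and the duration of treatment are not given in the sources used here.

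With 1 library per group the differences have no replicate check, and no test was made. A library difference and a treatment difference cannot be told apart. Levels are UMIs of a gene per 1000000 UMIs of the cell class in that library (CPM). Because the assay captures transcript 3' ends, 1 UMI stands for 1 captured transcript whatever its length, and levels were not divided by gene length. Intervals in brackets are exact 95% intervals that cover counting error only. A member was counted as higher or lower at a ratio of at least 1.5 in classes with at least 50 cells in both libraries, if it had at least 20 UMIs in the 2 libraries together.

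Collagens are built from 3 chains that wind into a triple helix. Fibrillar collagens form the tensile fibres of the dermis, and FACIT collagens sit on their surface. Network collagens form sheets such as the type IV scaffold of basement membranes, and beaded type VI collagen makes microfibrils around cells. In skin, fibroblasts are the known main source of fibrillar collagen, while vessels, nerves and muscle are wrapped in basement membranes. By type the members were 11 fibrillar, 8 network, 8 FACIT, 6 beaded, 3 transmembrane, 2 multiplexin and 2 other chains and 1 anchoring fibril chain. They held 2808082 UMIs in all, of which fibrillar chains made up 79.1%, beaded 10.3%, network 5.27%, FACIT 2.52% and multiplexin chains 1.91%. Transmembrane chains held 0.451%, the anchoring fibril chain 0.407% and the other chains 0.0179%.

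The IMQ+celastrol library held 6777 barcodes and 103267738 UMIs, the IMQ library 8236 and 119831835, and the normal library 10565 and 77880943. After filters on genes, mitochondrial UMIs and doublets, 6330 IMQ+celastrol, 7495 IMQ and 10246 normal cells were kept. Clusters were made without any collagen gene, so that the members did not define the classes. Classes were named "-like" from marker lists. Fibroblast-like cells, with all 10 fibroblast markers detected in each library, numbered 2271 in IMQ+celastrol, 3249 in IMQ and 2936 in normal skin. Their median depth was 9117 UMIs per cell in IMQ+celastrol, 8895 in IMQ and 4343.5 in normal cells, so the normal library was the shallowest. The other 5 stromal classes were smaller. Pericyte-like cells numbered 109 in IMQ+celastrol, 114 in IMQ and 44 in normal skin, and smooth muscle-like cells 476 in IMQ+celastrol, 491 in IMQ and 207 in normal skin. Blood endothelial-like cells numbered 31 in IMQ+celastrol, 53 in IMQ and 219 in normal skin. Lymphatic endothelial-like cells numbered 157 in IMQ+celastrol, 182 in IMQ and 60 in normal skin, and Schwann-like cells 97 in IMQ+celastrol, 74 in IMQ and 132 in normal skin. The markers of each of these classes all had UMIs in every library. Between 15 and 26 barcode sequences were shared by each pair of libraries.

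Fibroblast-like cells held 85.6% of the collagen UMIs of the IMQ+celastrol library, 88% of the IMQ library and 92.0% of the normal library. Collagen chains made up 3.61% in IMQ+celastrol, 2.23% in IMQ and 5.36% in normal cells of the fibroblast-like class. In the median cell they made up 2.85% of UMIs in IMQ+celastrol, 1.5% in IMQ and 4.07% in normal fibroblast-like cells. Fibroblast-like cells thus had the highest summed share of the stromal classes in every library, and theirs was lowest in IMQ. In the median cell of IMQ skin, pericyte-like cells were slightly higher, at 1.63%. In pericyte-like cells collagen made up 1.85% in IMQ+celastrol, 1.92% in IMQ and 0.874% in normal cells. It made up 0.564% in IMQ+celastrol, 0.624% in IMQ and 0.423% in normal cells of the smooth muscle-like class, and 0.739% in IMQ+celastrol, 0.429% in IMQ and 0.264% in normal cells of the blood endothelial-like class. Schwann-like cells had 0.505% in IMQ+celastrol, 0.422% in IMQ and 0.931% in normal cells. Lymphatic endothelial-like cells had 0.266% in IMQ+celastrol, 0.153% in IMQ and 0.324% in normal cells. In keratinocyte-like cells, which are not known as a source of fibrillar collagen and were used as a gauge of free RNA, it was 0.0483% in IMQ+celastrol, 0.0209% in IMQ and 0.0445% in normal cells.

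**Figure D1:**
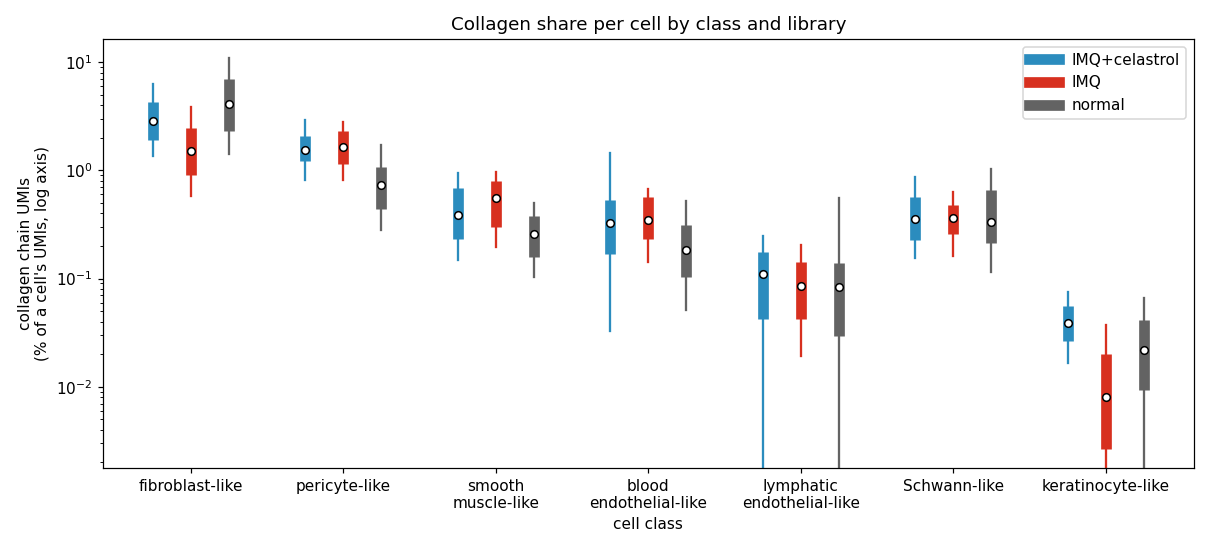
Collagen chain UMIs as a percentage of each cell's UMIs (log axis) in 6 stromal classes and in keratinocyte-like cells, by library; white points are medians over cells, thick bars the middle 50% of cells and thin lines the 10th to 90th percentile. Fibroblast-like medians were 2.85% in IMQ+celastrol, 1.5% in IMQ and 4.07% in normal cells. They were above every other class drawn in IMQ+celastrol and normal skin, while in IMQ the pericyte-like median, 1.63%, was slightly higher.

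**Figure D2:**
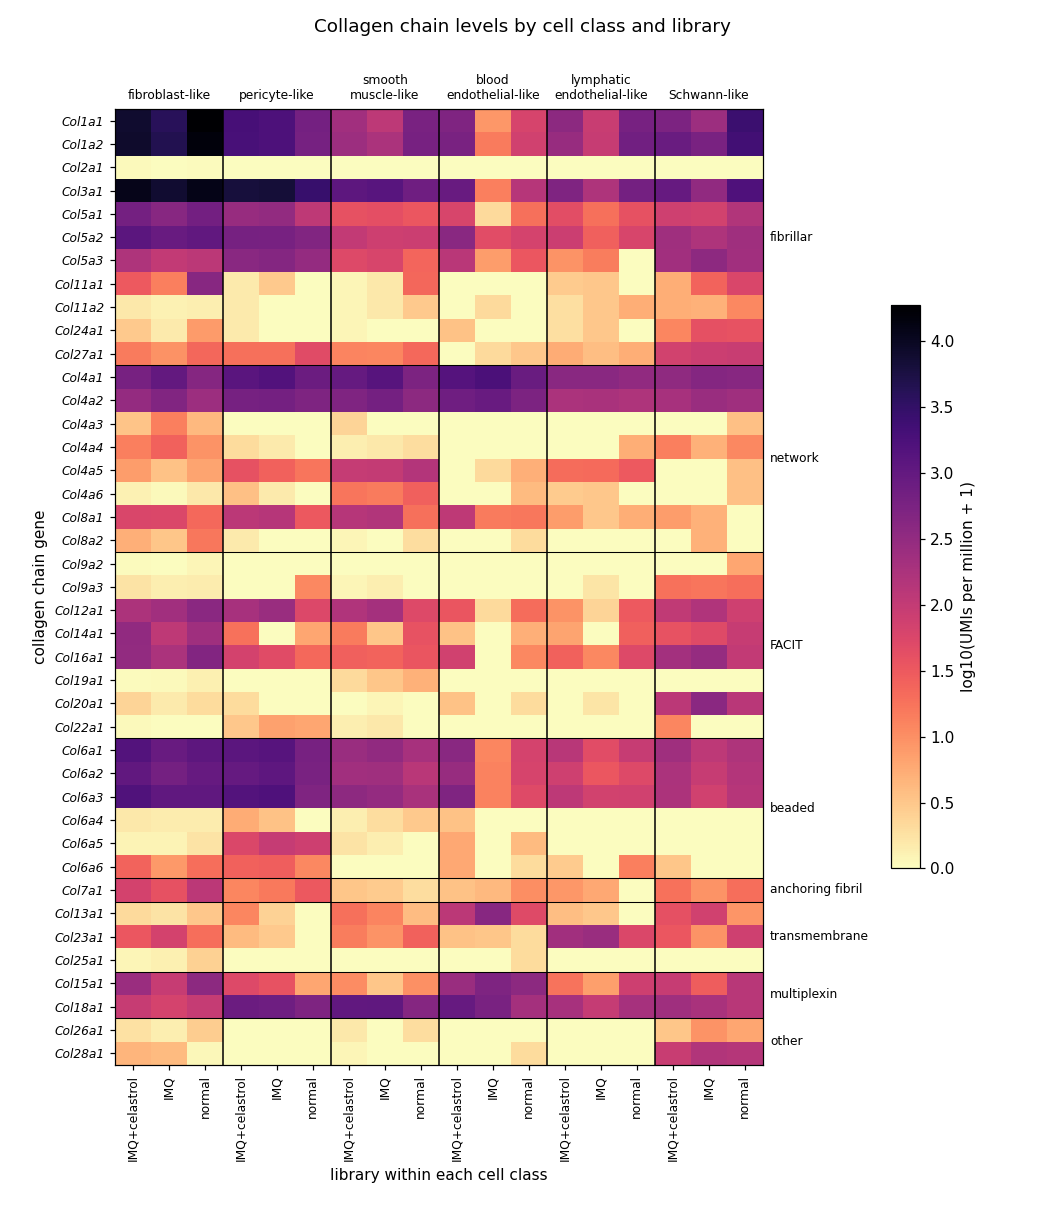
Level of each of the 41 collagen chain genes, as log10 of CPM plus 1 (colour), in each library (columns) of 6 stromal classes, with rows grouped by collagen type. Col1a1, Col1a2 and Col3a1 were highest in fibroblast-like cells, while Col13a1, Col20a1, Col23a1 and Col6a5 were highest in other stromal classes.

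In fibroblast-like cells most fibrillar chains were lower in IMQ than in normal skin, and most network chains were higher. Summed over the members, collagen was 2.40-fold lower (2.39 to 2.41) in IMQ than in normal fibroblast-like cells. Fibrillar chains together were 2.77-fold lower (2.76 to 2.77), FACIT chains 2.10-fold lower (2.06 to 2.15) and beaded chains 1.21-fold lower (1.19 to 1.22). Network chains together were 2.21-fold higher (2.17 to 2.26) in IMQ. Of 34 members with enough UMIs, 19 were lower in IMQ, where 18.8% of all 13952 genes measured in these cells were lower, and 7 were higher, against 14.8% of all genes. The median log2 ratio of these members was -0.75, against -0.02 over all genes measured. The other 7 members had too few UMIs here: Col2a1, Col4a6, Col6a5, Col9a2, Col11a2, Col19a1 and Col22a1.

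By type, 7 of 9 fibrillar and 4 of 5 FACIT chains were lower in IMQ and none higher, 5 of 7 network chains were higher and the other 2 lower, and 1 of 5 beaded chains was lower. The summed levels of all members and of fibrillar, network and FACIT chains in IMQ+celastrol lay between those of the other 2 libraries. Beaded chains were highest in IMQ+celastrol. Collagen summed over the members was 1.61-fold higher (1.61 to 1.62) in IMQ+celastrol than in IMQ fibroblast-like cells, fibrillar chains 1.71-fold higher (1.71 to 1.72), FACIT chains 1.59-fold higher (1.56 to 1.63) and beaded chains 1.55-fold higher (1.53 to 1.56). Network chains were 1.59-fold lower (1.57 to 1.62). Of 34 members measured, 22 were higher in IMQ+celastrol, where 14.3% of all 14019 genes were higher, and 5 were lower, against 7.11%. The median log2 ratio was 0.68 for these members and 0.15 for all genes, so that CPM lay higher in IMQ+celastrol for the typical gene too. Scaled so that the median gene was equal, the summed log2 ratio was 0.54 instead of 0.69, and 15 members were higher and 5 lower. Both comparisons share the IMQ library, so their opposite directions are not independent observations. Summed markers of smooth muscle, which dermal sheath cells of the hair follicle also express, stood at 286 CPM in IMQ+celastrol, 78.1 in IMQ and 1537 in normal cells of the fibroblast-like class, and the 15 keratinocyte markers at 855 CPM in IMQ+celastrol, 319.7 in IMQ and 529 in normal cells. All 8 smooth muscle and all 15 keratinocyte markers had UMIs in each library, and their part in these differences was not tested.

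**Figure D3:**
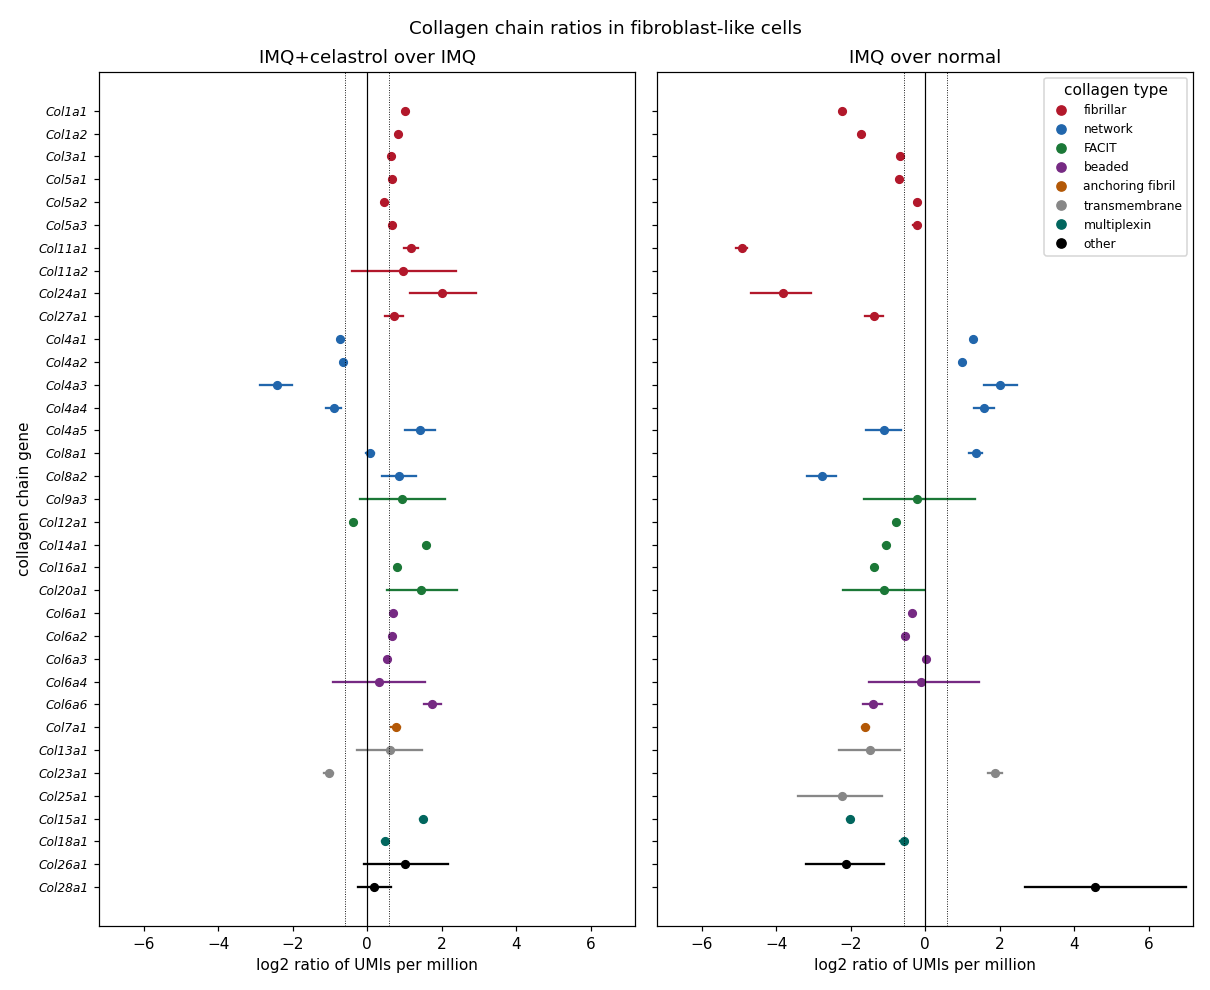
Log2 ratio of each measured collagen chain in fibroblast-like cells for IMQ+celastrol over IMQ (left) and IMQ over normal (right); lines are 95% counting intervals, dotted lines mark a ratio of 1.5 either way, and colours mark the collagen type. For IMQ over normal no fibrillar chain lay right of 0, while Col4a1, Col4a2 and Col8a1 did; the upper end of the Col28a1 interval is cut at the axis.

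Type I and type III collagen are the bulk of dermal fibres, type I being built from Col1a1 and Col1a2 chains and type III from Col3a1 alone. Col1a1 (chr11:94936224-94953042 on the plus strand of GRCm38) stood at 7928 CPM in IMQ+celastrol, 3946 in IMQ and 18751 in normal fibroblast-like cells. It was 4.75-fold lower (4.72 to 4.78) in IMQ than in normal and 2.01-fold higher (1.99 to 2.02) in IMQ+celastrol than in IMQ. Col1a2 (chr6:4504814-4541544, plus strand) stood at 8057 CPM in IMQ+celastrol, 4523 in IMQ and 14979 in normal cells, and Col3a1 (chr1:45311538-45349706, plus strand) at 11746 CPM in IMQ+celastrol, 7495 in IMQ and 12052 in normal cells. All 3 genes were lowest in IMQ, but by unequal amounts. Col1a2 was 3.31-fold lower (3.29 to 3.33) and Col3a1 1.61-fold lower (1.60 to 1.62) in IMQ than in normal cells. Per Col3a1 UMI there were 0.675 Col1a1 UMIs in IMQ+celastrol, 0.526 in IMQ and 1.56 in normal fibroblast-like cells. Per Col1a2 UMI there were 0.984 in IMQ+celastrol, 0.872 in IMQ and 1.25 in normal cells. Col3a1 was thus the leading chain in both imiquimod libraries and Col1a1 in the normal one.

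Because Col3a1 differed less between IMQ and normal cells than the type I chains did, the 150 bases before its annotated start are shown as RefSeq gives them for GRCm38.p6, plus strand, chr1:45311388-45311537, with a TATAAA match in capitals.
Col3a1: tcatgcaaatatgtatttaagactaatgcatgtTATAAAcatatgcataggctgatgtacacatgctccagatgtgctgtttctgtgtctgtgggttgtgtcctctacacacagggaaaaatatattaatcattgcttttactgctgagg
TATAAA on either strand lay in the 250 bases before the start in 12.4% of 32851 RefSeq promoter windows, and in 3 of the 34 windows found for 32 members (Col3a1, Col11a2 and Col13a1). The Col3a1 window had the lowest GC content of the members' windows, 35.2%, against a median of 60.0% for the members and 52.4% for all windows. The GC-rich letters GGGCGG, again on either strand, lay in 22 of the members' 34 windows (64.7%) and in 32.7% of all windows. CCAAT lay in 32.4% and 33.8%. No window was found for Col1a1, Col2a1, Col4a3, Col5a2, Col9a3, Col12a1, Col14a1, Col22a1 and Col26a1. Any part of the bases shown in the Col3a1 levels was not tested. Without a Col1a1 window, they could not be set against those of that gene.

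Type V chains join type I in mixed fibrils. They differed less than the type I chains: Col5a1 was 1.65-fold lower (1.60 to 1.69) in IMQ than in normal cells, while Col5a2 and Col5a3 differed by less than 1.5-fold. In IMQ+celastrol Col5a1 was 1.58-fold higher (1.55 to 1.62), Col5a3 1.59-fold higher (1.52 to 1.67) and Col5a2 1.37-fold higher (1.35 to 1.39) than in IMQ. Col11a1, a fibril-nucleating chain best known from cartilage, had the smallest ratio of IMQ to normal of all measured members. It stood at 29.8 CPM in IMQ+celastrol, 13.2 in IMQ and 402 in normal fibroblast-like cells, 30.5-fold lower (27.7 to 33.7) in IMQ than in normal. Dermal sheath-like cluster 13 held 70.5% of all Col11a1 UMIs in kept cells and contributed 112 IMQ+celastrol, 32 IMQ and 515 normal cells. Inside that cluster Col11a1 still stood at 133 CPM in IMQ+celastrol, 216 in IMQ and 1197 in normal cells. Col24a1, another fibrillar chain, had 44 UMIs in IMQ+celastrol, 16 in IMQ and 105 in normal fibroblast-like cells. It was 14.3-fold lower (8.38 to 25.9) in IMQ than in normal and 4.01-fold higher (2.22 to 7.60) in IMQ+celastrol than in IMQ. For IMQ+celastrol over IMQ the log2 ratio of Col11a1 was 1.18 and that of Col24a1 2.0. With the fibroblast subsets given equal weight, these turned to -0.67 for Col11a1 and -0.20 for Col24a1. Col27a1 stood at 14.0 CPM in IMQ+celastrol, 8.48 in IMQ and 22.1 in normal cells. Col11a2 had 12 UMIs or fewer in each library, and Col2a1, the cartilage chain, 2 or fewer.

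Type IV collagen is the sheet of basement membranes, and its main form joins Col4a1 and Col4a2 chains. Col4a1 stood at 607 CPM in IMQ+celastrol, 1008 in IMQ and 418 in normal fibroblast-like cells, and Col4a2 at 305 CPM in IMQ+celastrol, 482 in IMQ and 245 in normal cells. Both were highest in IMQ. Col4a1 was 2.41-fold higher (2.35 to 2.48) in IMQ than in normal cells and 1.66-fold lower (1.63 to 1.69) in IMQ+celastrol than in IMQ. Col4a2 was 1.97-fold higher (1.90 to 2.04) and 1.58-fold lower (1.54 to 1.63). Per Col4a2 UMI there were 1.99 Col4a1 UMIs in IMQ+celastrol, 2.09 in IMQ and 1.71 in normal fibroblast-like cells. Across the 6 stromal classes this ratio lay between 1.48 (normal smooth muscle-like cells) and 2.31 (IMQ pericyte-like cells), although the Col4a1 level ranged from 329 to 1752 CPM. Network chains made up 2.76% of collagen UMIs in IMQ+celastrol, 7.10% in IMQ and 1.34% in normal fibroblast-like cells.

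The 2 genes lie head to head, Col4a1 at chr8:11198423-11312826 on the minus strand and Col4a2 at chr8:11312805-11449287 on the plus strand, and in the GENCODE vM21 annotation of GRCm38 their first bases overlap by 22. That stretch is shown because, across the stromal classes, the ratio of the 2 chains varied less than the Col4a1 level did. Some single clusters lay outside the class range of this ratio. Cluster 19 had 794 Col4a1 and 781 Col4a2 UMIs in normal cells, and cluster 11 had 1543 and 577 in IMQ cells. Any part of the shared stretch in the ratio was not tested. The stretch is from RefSeq, GRCm38.p6, plus strand, chr8:11312801-11312830, with the shared 22 bases in capitals.
Col4a1 and Col4a2: cggcAGTGCGCGGGCGGCGTCTCCAAgggg
Col4a4 (minus strand) and Col4a3 (plus strand) form a second such pair on chromosome 1, with 71 bases between their starts at chr1:82586850-82586920, shown on the plus strand from the same source.
Col4a4 and Col4a3: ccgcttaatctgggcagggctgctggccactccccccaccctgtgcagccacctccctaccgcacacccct
None of the 3 motifs named for the promoter windows lay in these 71 bases on either strand. Col4a6 and Col4a5 on the X chromosome are another such pair, with 1308 bases between their starts.

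Col4a3 and Col4a4, chains of the kidney glomerular basement membrane, were scarce and also highest in IMQ. Col4a3 had 54 UMIs in IMQ+celastrol, 424 in IMQ and 49 in normal fibroblast-like cells, held by 44 IMQ+celastrol, 258 IMQ and 34 normal cells. It was 3.98-fold higher (2.96 to 5.47) in IMQ than in normal and 5.39-fold lower (4.05 to 7.30) in IMQ+celastrol than in IMQ. Col4a4 was 2.96-fold higher (2.45 to 3.61) in IMQ than in normal and 1.87-fold lower (1.63 to 2.14) in IMQ+celastrol than in IMQ. With the subsets given equal weight, the log2 ratios for IMQ over normal turned to -0.45 for Col4a3 and -0.12 for Col4a4. Remodelling-like cluster 16, with no normal cell, held 193 of the 424 IMQ UMIs of Col4a3. Within Apod-high-like cluster 10 Col4a3 stood at 6.88 CPM in IMQ+celastrol, 25.9 in IMQ and 41.9 in normal cells. The order of the libraries in that cluster thus differed from that of the whole class. Col4a5 differed the other way, at 6.57 CPM in IMQ+celastrol, 2.47 in IMQ and 5.37 in normal cells, and Col4a6 had 8 UMIs or fewer in each library.

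Type VIII collagen makes short-chain networks in vessel walls and matrix. Its chains differed in opposite directions in IMQ. Col8a1 stood at 56.7 CPM in IMQ+celastrol, 54.2 in IMQ and 21.2 in normal cells, 2.56-fold higher (2.27 to 2.89) in IMQ than in normal, and IMQ+celastrol and IMQ differed by less than 1.5-fold. Col8a2 stood at 4.09 CPM in IMQ+celastrol, 2.26 in IMQ and 15.5 in normal cells, 6.87-fold lower (5.27 to 9.05) in IMQ than in normal. Col8a1 was most abundant in cluster 4, which held 46.7% of its UMIs. Col8a2 was most abundant in dermal sheath-like cluster 13, with 38.2%. For IMQ+celastrol over IMQ the log2 ratio of Col8a2 was 0.86, and -0.67 with equal weight to the subsets.

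Beaded type VI collagen is assembled from Col6a1, Col6a2 and 1 more chain, which is usually Col6a3. These abundant chains differed by less than 1.5-fold between IMQ and normal fibroblast-like cells. Col6a1 stood at 1438 CPM in IMQ+celastrol, 896 in IMQ and 1149 in normal cells, Col6a2 at 1019 CPM in IMQ+celastrol, 637 in IMQ and 929 in normal cells and Col6a3 at 1556 CPM in IMQ+celastrol, 1069.6 in IMQ and 1054 in normal cells. In IMQ+celastrol Col6a1 was 1.61-fold higher (1.58 to 1.63) and Col6a2 1.60-fold higher (1.57 to 1.63) than in IMQ, and Col6a3 1.46-fold higher (1.43 to 1.48). Per Col6a2 UMI there were 1.41 Col6a1 UMIs in IMQ+celastrol, 1.41 in IMQ and 1.24 in normal cells. The ratio of the 2 partner chains thus varied less than their levels did. The chain Col6a6, which can take the place of Col6a3, differed more, at 24.0 CPM in IMQ+celastrol, 7.14 in IMQ and 19 in normal cells. It was 2.66-fold lower (2.23 to 3.18) in IMQ than in normal and 3.37-fold higher (2.88 to 3.94) in IMQ+celastrol than in IMQ. Col6a4 had at most 14 UMIs in a library and Col6a5 at most 11.

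FACIT collagens coat fibrils and link them to other matrix. Col16a1 stood at 306 CPM in IMQ+celastrol, 178 in IMQ and 459 in normal cells, lowest in IMQ. Col14a1, a regulator of fibril diameter, stood at 330.2 CPM in IMQ+celastrol, 109.7 in IMQ and 229 in normal cells. It was 2.09-fold lower (1.99 to 2.19) in IMQ than in normal and 3.01-fold higher (2.89 to 3.13) in IMQ+celastrol than in IMQ, and IMQ+celastrol lay above both other libraries. Col12a1, a fibril-bound chain of tendon, dermis and other dense tissue, stood at 170.1 CPM in IMQ+celastrol, 219.8 in IMQ and 378 in normal cells. It was 1.72-fold lower (1.66 to 1.78) in IMQ than in normal. Without dermal sheath-like cluster 13 the log2 ratio of Col12a1 for IMQ over normal turned to 0.46, against -0.78 with it. The other FACIT chains were scarce. Col20a1 had 30 UMIs in IMQ+celastrol, 16 in IMQ and 16 in normal fibroblast-like cells and was 2.73-fold higher (1.44 to 5.36) in IMQ+celastrol than in IMQ. For IMQ over normal its log2 ratio was -1.12, and 0.08 after the keratinocyte-like level was subtracted. Col9a3 had at most 17 UMIs in a library, and Col9a2, Col19a1 and Col22a1 at most 5.

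Among the remaining types, Col7a1, the chain of the anchoring fibrils under the epidermis, stood at 65.7 CPM in IMQ+celastrol, 38.8 in IMQ and 118 in normal cells. It was 3.05-fold lower (2.84 to 3.28) in IMQ than in normal cells. With equal weight to the subsets its log2 ratio for IMQ over normal was 0.05, against -1.61 as pooled. In IMQ+celastrol it was 1.69-fold higher (1.57 to 1.83) than in IMQ. Keratinocytes are a known source of type VII collagen too. After subtraction of the keratinocyte-like level, 77.7 CPM in IMQ+celastrol, 17.9 in IMQ and 46.5 in normal, nothing was left of Col7a1 in IMQ+celastrol. That level can include the keratinocytes' own transcripts, so the subtraction cannot show how much Col7a1 the fibroblast-like cells held. Col15a1, a multiplexin of basement membrane zones, stood at 255 CPM in IMQ+celastrol, 90.7 in IMQ and 370.2 in normal cells. It was 4.08-fold lower (3.90 to 4.27) in IMQ than in normal and 2.81-fold higher (2.69 to 2.94) in IMQ+celastrol than in IMQ. Col18a1, the other multiplexin and the source of endostatin, stood at 89.5 CPM in IMQ+celastrol, 64.0 in IMQ and 95.7 in normal cells. Of the transmembrane collagens, Col23a1 stood at 32.9 CPM in IMQ+celastrol, 67.1 in IMQ and 18.4 in normal cells and was 3.66-fold higher (3.23 to 4.16) in IMQ than in normal. The IMQ+celastrol level was 2.04-fold lower (1.88 to 2.22) than in IMQ. Col23a1 was thus the transmembrane chain with the highest level and was highest in IMQ. If every cluster took the class of its highest score, which adds unnamed clusters rich in Col23a1, both directions turned, to log2 ratios of 0.26 for IMQ+celastrol over IMQ and -0.81 for IMQ over normal. Col13a1 and Col25a1 had at most 31 UMIs in a library and were 2.81-fold lower (1.59 to 5.0) and 4.74-fold lower (2.24 to 10.7) in IMQ than in normal. Col28a1, a chain of peripheral nerve, had 81 UMIs in IMQ+celastrol, 103 in IMQ and 2 in normal fibroblast-like cells, a ratio of 23.7 (6.40 to 198) for IMQ over normal. Of these UMIs Apod-high-like cluster 10 held 41 in IMQ+celastrol, 64 in IMQ and 1 in normal cells. Col26a1 had at most 26 UMIs in a library.

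Enzymes and chaperones that assemble, cross-link or degrade collagen differed in both directions in IMQ. Of 37 assembly genes, all measured in fibroblast-like cells, 9 were higher and 8 lower in IMQ than in normal, which is 24.3% and 21.6% of the list, against 14.8% of all genes higher and 18.8% lower. The list's median log2 ratio was -0.02, and that of all genes -0.02. In IMQ+celastrol against IMQ, 9 were higher and 1 lower, or 24.3% and 2.70%, against 14.3% of all genes higher and 7.11% lower. The median was 0.33 for the list and 0.15 for all genes. The lowest ratios in IMQ belonged to Sparc, a collagen-binding matrix protein, Serpinh1, the chaperone HSP47 that binds the triple helix, and P3h4, a partner of collagen-modifying enzymes. Sparc stood at 5529 CPM in IMQ+celastrol, 3474 in IMQ and 11092 in normal cells, Serpinh1 at 1802 CPM in IMQ+celastrol, 943 in IMQ and 2155 in normal cells and P3h4 at 74.0 CPM in IMQ+celastrol, 52.5 in IMQ and 95.6 in normal cells. The highest ratios in IMQ belonged to Loxl3 and Lox, lysyl oxidases that cross-link fibres, and Ctsk, the collagen-cleaving cathepsin K. Loxl3 stood at 38.9 CPM in IMQ+celastrol, 30.8 in IMQ and 6.82 in normal cells, Ctsk at 2206 CPM in IMQ+celastrol, 2793 in IMQ and 839 in normal cells and Lox at 394 CPM in IMQ+celastrol, 601 in IMQ and 211 in normal cells. Lox was also 1 of the 10 markers that named the class. In IMQ+celastrol against IMQ, P3h2, a prolyl hydroxylase, was 2.13-fold higher (1.43 to 3.22), Itga11, a collagen receptor chain, 2.06-fold higher (1.84 to 2.31) and Serpinh1 1.91-fold higher (1.88 to 1.94). Lox was 1.52-fold lower (1.49 to 1.56), Ctsk 1.27-fold lower (1.25 to 1.28) and the lysyl hydroxylase gene Plod1 1.16-fold lower (1.10 to 1.22). Of these 3 the ratio of Lox alone passed 1.5.

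The make-up of the fibroblast-like class differed between libraries. Remodelling-like clusters 0 (led by Ctsk, Tnc and Grem1) and 16 (led by Saa3, Cxcl13 and Cxcl5) had 311 and 77 IMQ+celastrol cells, 1321 and 542 IMQ cells and 4 and 0 normal cells. Adventitial-like cluster 1 (Cpz, Cyp2f2, Ccl19) had 354 IMQ+celastrol, 13 IMQ and 1149 normal cells. Papillary-like cluster 2 had 462 IMQ+celastrol, 111 IMQ and 866 normal cells. The 2 remodelling-like clusters were thus nearly absent from the normal library. Lower fibrillar and higher network levels in IMQ were also seen inside clusters with at least 50 cells in every library. In papillary-like cluster 2 fibrillar chains were 2.46-fold lower (2.42 to 2.50) in IMQ than in normal cells and network chains 2.11-fold higher (1.96 to 2.28). In adventitial-like cluster 11 (Smpd3, Dpp4, Anxa3) they were 2.0-fold lower (1.94 to 2.06) and 2.07-fold higher (1.75 to 2.47). Cluster 4, without a subset name, was led by Thbs4, Myoc and Cilp. There fibrillar chains were 1.45-fold lower (1.43 to 1.47) and network chains 1.57-fold higher (1.48 to 1.68), and in Apod-high-like cluster 10 1.37-fold lower (1.34 to 1.39) and 1.35-fold higher (1.23 to 1.47). Dermal sheath-like cluster 13, with 32 IMQ cells, had 2.63-fold lower (2.54 to 2.72) fibrillar and 1.39-fold lower (1.2 to 1.61) network chains. Network chains in that cluster thus differed in the opposite direction from the other 4 clusters. Members lower in IMQ numbered 10 of 25 in cluster 2 (11% of all genes measured there), 11 of 25 in cluster 4 (15.8%), 11 of 23 in cluster 10 (20.3%) and 9 of 19 in cluster 11 (14.3%).

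IMQ+celastrol cells had more fibrillar and less network collagen than IMQ cells in each of the fibroblast-like clusters with at least 20 cells in both. The difference was largest in remodelling-like cluster 0, where fibrillar chains made up 3.91% of UMIs in IMQ+celastrol and 1.24% in IMQ cells, 3.15-fold higher (3.13 to 3.18). Col1a1 there stood at 11173 CPM in IMQ+celastrol and 3027 in IMQ, and Col4a1 at 588 CPM in IMQ+celastrol and 1066 in IMQ. In adventitial-like cluster 11 fibrillar chains were 2.61-fold higher (2.57 to 2.65), and 16 of 21 members were higher (15.6% of all genes measured there). The smallest fibrillar difference was that of Apod-high-like cluster 10, 1.28-fold higher (1.26 to 1.29). Network chains were 1.88-fold lower (1.81 to 1.96) in cluster 0, 1.62-fold lower (1.52 to 1.72) in cluster 16 and 1.25-fold lower (1.16 to 1.34) in cluster 2. Some chains were most abundant in 1 cluster. Cluster 4 held 45.3% of the Col14a1 UMIs of kept cells, at 941 CPM in IMQ+celastrol, 372 in IMQ and 884 in normal cells. Pooled over libraries, Col1a1 was highest in adventitial-like cluster 1, at 9972 CPM in IMQ+celastrol and 26078 in normal cells.

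**Figure D4:**
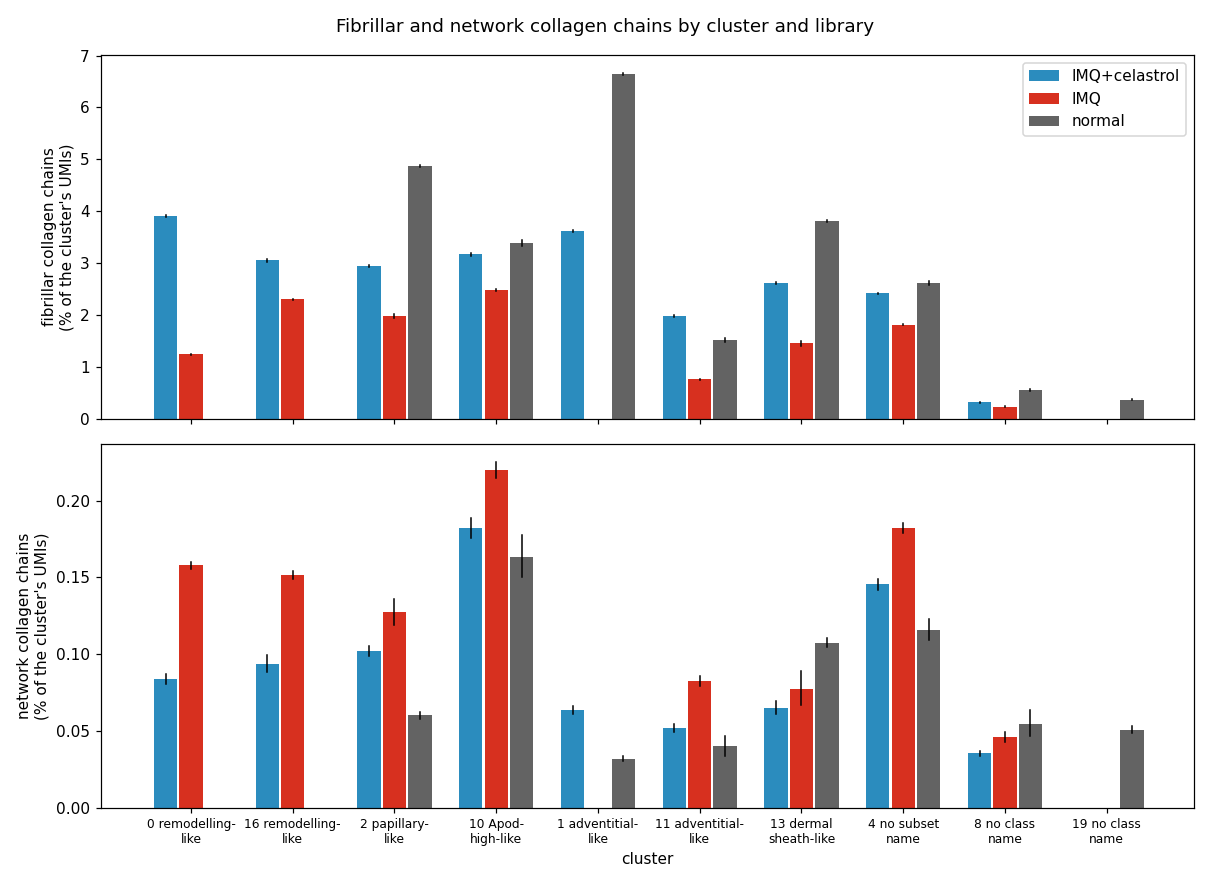
Fibrillar (top) and network (bottom) collagen chains as a percentage of UMIs in 8 fibroblast-like clusters and in clusters 8 and 19, which have no class name, by library; black lines are 95% counting intervals, and no bar is drawn for a library with fewer than 20 cells in a cluster. In clusters 2, 4, 10 and 11 the IMQ bar was the lowest of 3 for fibrillar and the highest of 3 for network chains.

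Clusters 8 and 19 scored highest for fibroblast markers but stayed without a class name. Cluster 8 (led by Slc26a7, Prlr and Pappa2) had 510 IMQ+celastrol, 267 IMQ and 89 normal cells, and cluster 19 (Hhip, Wif1, Rspo3) had 536 normal cells and none of the other libraries. Their collagen share was a fraction of that in the named clusters, at 0.66% in IMQ+celastrol, 0.528% in IMQ and 1.04% in normal cells of cluster 8 and 0.725% in normal cells of cluster 19. The transmembrane chain Col23a1 was abundant in both, at 396 CPM in IMQ+celastrol, 358 in IMQ and 520.1 in normal cells of cluster 8, and 694 CPM in normal cells of cluster 19. Cluster 19 was also the highest of all clusters for Col15a1, at 623 CPM in normal cells.

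Pericytes wrap capillaries inside the vessel's basement membrane. Pericyte-like cells (cluster 31, led by Rgs5 and Higd1b) carried both fibrillar and network chains. Col3a1 stood at 6375 CPM in IMQ+celastrol, 6733 in IMQ and 2749.7 in normal pericyte-like cells, Col1a1 at 1998 CPM in IMQ+celastrol, 1685 in IMQ and 645 in normal cells and Col1a2 at 1874 CPM in IMQ+celastrol, 1717 in IMQ and 614 in normal cells. With 44 normal cells of a median depth of 3910 UMIs, against 16571 in IMQ+celastrol and 17746.5 in IMQ, no call was made against normal skin. All 3 levels were lowest in the normal library, against the order in fibroblast-like cells, where IMQ was lowest. Between IMQ+celastrol and IMQ they differed by less than 1.5-fold, and of 23 members 3 were higher (9.81% of all genes) and 1 lower (9.42%). Per Col3a1 UMI there were 0.313 Col1a1 UMIs in IMQ+celastrol, 0.25 in IMQ and 0.235 in normal pericyte-like cells, below the ratio of fibroblast-like cells of the same library. The 10 fibroblast markers summed to 946 CPM in IMQ+celastrol, 557 in IMQ and 399 in normal cells. Pdgfra and Fbln1 were at 0 in the normal ones. The 8 pericyte markers summed to 5318 CPM in IMQ+celastrol, 5456 in IMQ and 6533 in normal cells. Smooth muscle markers, all 8 with UMIs, summed higher, to 27892 CPM in IMQ+celastrol, 34687 in IMQ and 18350 in normal cells. In smooth muscle-like cells these stood at 53890 CPM in IMQ+celastrol, 52854 in IMQ and 39783 in normal cells. The part of smooth muscle RNA in the collagen values of pericyte-like cells was not tested. The type VI chain Col6a5 was found mainly in pericyte-like cells, which held 87.8% of its UMIs. It stood at 54.6 CPM in IMQ+celastrol, 93.9 in IMQ and 78.7 in normal cells, 1.72-fold lower (1.35 to 2.20) in IMQ+celastrol than in IMQ, and a UMI of it was held by 36.7% in IMQ+celastrol, 40.4% in IMQ and 25% in normal cells. In keratinocyte-like cells, at a median depth of 8763.5 UMIs or more, the share was at most 0.248%. Col14a1 had 33 UMIs in IMQ+celastrol and 0 in IMQ pericyte-like cells. With the 0 set to 3 counts it was 11.4-fold higher, and the lower limit of the interval was 8.76. Col17a1, not a member, had 34 UMIs in IMQ+celastrol and 0 in IMQ cells. The 15 keratinocyte markers summed to 934 CPM in IMQ+celastrol, 303 in IMQ and 436 in normal pericyte-like cells. The part of RNA from other cells in the Col14a1 value was not tested. Of the members with enough UMIs, IMQ and normal cells stood furthest apart for Col15a1, with 73 UMIs and 36.3 CPM in IMQ and 1 UMI and 5.25 CPM in normal cells. At the other end was Col27a1, at 17.9 CPM in IMQ and 47.2 in normal cells.

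Smooth muscle-like cells comprised cluster 6 (Timp4, Sncg, Myh11) and cluster 32 (Des, Synpo2, Actg2). Their leading chains were Col3a1, Col4a1 and Col18a1. Col3a1 stood at 1151 CPM in IMQ+celastrol, 1315 in IMQ and 717 in normal smooth muscle-like cells. Col4a1 stood at 971 CPM in IMQ+celastrol, 1349.5 in IMQ and 535 in normal cells, 2.52-fold higher (2.31 to 2.76) in IMQ than in normal, and it was 1.39-fold lower (1.34 to 1.44) in IMQ+celastrol than in IMQ, the lowest ratio of that comparison. Col18a1 stood at 1019 CPM in IMQ+celastrol, 1056 in IMQ and 418 in normal cells, 2.53-fold higher (2.29 to 2.80) in IMQ than in normal. Both basement membrane chains were lowest in the normal library. Of 23 members 11 were higher in IMQ (13.8% of all genes) and 8 lower (18.1%). In IMQ+celastrol against IMQ 5 of 23 were higher (8.0%) and none lower (5.98%). Col8a1 had the largest ratio, at 131 CPM in IMQ+celastrol, 148 in IMQ and 17.8 in normal cells, 8.33-fold higher (5.24 to 14.1) in IMQ than in normal. Col11a1 had the smallest, with 3 UMIs in IMQ and 22 in normal cells, 38.7-fold lower (11.6 to 202) in IMQ. Col14a1 was 6.28-fold higher (3.39 to 12.7) in IMQ+celastrol than in IMQ, with 74 UMIs in IMQ+celastrol and 12 in IMQ cells. Col4a5 and Col4a6, the type IV pair of smooth muscle, reached their highest class level here, Col4a5 at 94.9 CPM in IMQ+celastrol, 97.3 in IMQ and 145 in normal cells and Col4a6 at 16 CPM in IMQ+celastrol, 14.1 in IMQ and 25.7 in normal cells. The 2 clusters went opposite ways: the summed collagen level was 2.03-fold higher (1.96 to 2.12) in IMQ than in normal cells of cluster 6 and 2.60-fold lower (2.44 to 2.77) in cluster 32, which had 35 normal cells. The direction of the whole class also turned when each library was clustered by itself. The log2 ratio of its summed collagen was then -0.16 for IMQ over normal, against 0.56 as pooled, and 0.66 for IMQ+celastrol over IMQ, against -0.14. In the normal library 10% of the smooth muscle-like cells held 94.5% of the class's Col1a1 UMIs. The 10 fibroblast markers, each with UMIs, summed to 362 CPM in IMQ+celastrol, 385 in IMQ and 392 in normal cells of this class. The median gene here had a log2 ratio of -0.12 for IMQ over normal.

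Blood endothelial-like cells (Gpihbp1, Plvap, Cdh5) carried a basement membrane set of chains. Col4a1 stood at 1406 CPM in IMQ+celastrol, 1752 in IMQ and 846 in normal blood endothelial-like cells, Col4a2 at 734 CPM in IMQ+celastrol, 882 in IMQ and 544 in normal cells and Col18a1 at 905 CPM in IMQ+celastrol, 583 in IMQ and 205 in normal cells. Compared with normal cells, Col4a1 in IMQ cells was 2.07-fold higher (1.90 to 2.25), Col4a2 1.62-fold higher (1.45 to 1.81) and Col18a1 2.85-fold higher (2.41 to 3.37). Col13a1, a transmembrane collagen of cell contacts, had its highest class level here, at 119 CPM in IMQ+celastrol, 410.5 in IMQ and 48.6 in normal cells. It was 8.44-fold higher (6.22 to 11.7) in IMQ than in normal, the largest ratio of that comparison. This class held 30.8% of the Col13a1 UMIs of kept cells. Cluster 8, without a class name, had 395 UMIs of Col13a1 in IMQ+celastrol, 228 in IMQ and 17 in normal cells. Its level was 82.3 CPM in IMQ+celastrol, 139.9 in IMQ and 57.4 in normal cells, in normal skin above that of this class. Up to 79 UMIs of Col13a1 lay in a single cell of the series, a spread that the counting interval leaves out. A Col13a1 UMI was held by 22.6% of IMQ+celastrol, 45.3% of IMQ and 10.1% of normal cells. Median depths were 9073 UMIs in IMQ+celastrol, 15159 in IMQ and 3518 in normal cells. In keratinocyte-like cells the share was at most 0.248%. Of 15 members 4 were higher in IMQ (16.1% of all genes) and 8 lower (19.4%). The higher ones were 2 network chains, Col13a1 and Col18a1, and the lower ones 4 fibrillar, 3 beaded and 1 FACIT chain. The smallest ratio was that of this FACIT chain, Col12a1, with 1 UMI in IMQ and 19 in normal cells, 18.1-fold lower (2.88 to 752) in IMQ. Col15a1 had its highest class level pooled over libraries here, at 267 CPM in IMQ+celastrol, 520.2 in IMQ and 368 in normal cells. Col1a1 was seen in 12 of 31 IMQ+celastrol, 6 of 53 IMQ and 23 of 219 normal cells. In the normal library 10% of the cells held 98.3% of its UMIs. The fibroblast markers summed to 1892 CPM in IMQ+celastrol, 139 in IMQ and 132 in normal cells. Dpt, Fbln1 and Clec3b were at 0 in IMQ, and otherwise all 10 had UMIs. The 8 pericyte markers, all with UMIs, summed to 1678 CPM in IMQ+celastrol, 156 in IMQ and 759.5 in normal cells. The 8 smooth muscle markers summed to 3239 CPM in IMQ+celastrol, 504 in IMQ and 715 in normal cells, with Cnn1 and Actg2 at 0 in IMQ and Actg2 at 0 in normal cells. The 15 keratinocyte markers, of which 12 had UMIs in IMQ+celastrol, 11 in IMQ and 14 in normal cells, summed to 1294 CPM in IMQ+celastrol, 679.8 in IMQ and 1865 in normal cells. These 3 lists were lowest in IMQ, as Col3a1 and the beaded chains were. The part of fibroblast, pericyte or smooth muscle RNA in the collagen values of this class, Col4a1, Col4a2 and Col18a1 included, was not tested. In IMQ+celastrol, pericyte-like cells had 1258 CPM of Col4a1 and 818 CPM of Col18a1. With 31 IMQ+celastrol cells no call was made against IMQ. The values that stood furthest apart there were those of Col3a1, 892 CPM in IMQ+celastrol, 13 in IMQ and 131 in normal cells, and of Col13a1, given above.

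Lymphatic endothelial-like cells (Ccl21a, Mmrn1, Lyve1) had the lowest collagen share of the stromal classes in IMQ+celastrol and IMQ. The chain that reached its highest class level pooled over libraries here was the transmembrane Col23a1, at 224 CPM in IMQ+celastrol, 264 in IMQ and 55.5 in normal lymphatic endothelial-like cells. In normal skin its level was higher in Schwann-like cells, at 73.3 CPM. In lymphatic endothelial-like cells it was 4.77-fold higher (2.75 to 9.03) in IMQ than in normal, the largest ratio of the comparison. In T cell-like cells a UMI of it was held by at most 0.797% of cells in a library, at median depths of 2199 to 2925 UMIs. In lymphatic endothelial-like cells, at median depths of 4094 UMIs in IMQ+celastrol, 5161 in IMQ and 2419.5 in normal skin, it was held by 45.9% in IMQ+celastrol, 58.2% in IMQ and 20% in normal cells. Col4a1 differed by less than 1.5-fold in either comparison, at 390.5 CPM in IMQ+celastrol, 386 in IMQ and 329 in normal cells. Of 15 members 10 were lower in IMQ (12.7% of all genes) and 1 higher (24.0%). In IMQ+celastrol against IMQ 11 of 16 were higher (9.48%) and 1 lower (8.66%). The 10 lower in IMQ were 5 fibrillar, 2 beaded, 2 multiplexin and 1 FACIT chain, and no network chain passed 1.5-fold in either comparison. Col3a1 stood at 491 CPM in IMQ+celastrol, 161 in IMQ and 640.2 in normal cells, Col1a2 at 278 CPM in IMQ+celastrol, 89.8 in IMQ and 713 in normal cells and Col1a1 at 370.4 CPM in IMQ+celastrol, 88.4 in IMQ and 593 in normal cells. These 3 were lowest in IMQ, and Col1a1 was 4.19-fold higher (3.42 to 5.16) in IMQ+celastrol than in IMQ. Col1a1 was held by 32 of 157 IMQ+celastrol, 11 of 182 IMQ and 10 of 60 normal cells, and the top 10% of cells in each library held at least 96.0% of its UMIs. The 10 fibroblast markers, all with UMIs, summed to 807 CPM in IMQ+celastrol, 494 in IMQ and 1758 in normal cells, lowest in IMQ as well. So were the 15 keratinocyte markers, of which 13 had UMIs in IMQ+celastrol and 11 each in IMQ and normal cells, at 1334 CPM in IMQ+celastrol, 663 in IMQ and 871 in normal cells. The part of fibroblast RNA in the fibrillar values of this class was not tested. The smallest ratio for IMQ over normal was that of Col15a1, with 9 UMIs in IMQ and 18 in normal cells, 12.2-fold lower (5.19 to 30.8) in IMQ. The smallest for IMQ+celastrol over IMQ was that of Col5a3, with 9 UMIs in IMQ+celastrol and 19 in IMQ cells, 1.62-fold lower (0.698 to 4.06) in IMQ+celastrol.

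Schwann-like cells had 2 chains at levels far above those of the other classes. Col28a1 stood at 87.4 CPM in IMQ+celastrol, 151 in IMQ and 139 in normal Schwann-like cells. The next highest class pooled over libraries, melanocyte-like cells, had 5.07 CPM. Schwann-like cells held 39.5% of the Col28a1 UMIs, and the far larger fibroblast-like class held 56.0%. Col20a1, a FACIT-related chain, stood at 120.1 CPM in IMQ+celastrol, 378 in IMQ and 123 in normal cells, with 62.1% of its UMIs in this class. It was 3.07-fold higher (2.14 to 4.45) in IMQ than in normal and 3.14-fold lower (2.23 to 4.47) in IMQ+celastrol than in IMQ. These counts came from 5 IMQ+celastrol, 7 IMQ and 5 normal cells, with up to 42 UMIs in a single cell of the series. The counting intervals leave that spread out. Type V chain Col5a3 stood at 218 CPM in IMQ+celastrol, 350.0 in IMQ and 217 in normal cells. Pooled over libraries, the fibrillar chains of highest level were Col1a1, Col1a2 and Col3a1, while in IMQ cells Col5a3 lay above Col1a1 and Col3a1. Col1a1 stood at 539.6 CPM in IMQ+celastrol, 247 in IMQ and 2635 in normal cells, Col1a2 at 852 CPM in IMQ+celastrol, 581 in IMQ and 2244 in normal cells and Col3a1 at 926 CPM in IMQ+celastrol, 322 in IMQ and 1647 in normal cells. Col1a1 was 10.7-fold lower (8.26 to 14.0) in IMQ than in normal, the smallest ratio of that comparison. Per Col3a1 UMI there were 0.583 Col1a1 UMIs in IMQ+celastrol, 0.765 in IMQ and 1.60 in normal Schwann-like cells, against 0.675 in IMQ+celastrol, 0.526 in IMQ and 1.56 in normal fibroblast-like cells. The top 10% of Schwann-like cells in each library held between 71.0% and 90.3% of the Col1a1 UMIs. The 10 fibroblast markers summed to 3235 CPM in IMQ+celastrol, 982 in IMQ and 1964 in normal cells, with Dpt at 0 in IMQ. The 15 keratinocyte markers, of which 12 had UMIs in IMQ+celastrol, 11 in IMQ and 13 in normal cells, summed to 6206 CPM in IMQ+celastrol, 1399.9 in IMQ and 3139.9 in normal cells. The part of fibroblast RNA in the fibrillar values of this class was not tested. Of 23 measured members 5 were higher in IMQ (18.1% of all genes) and 10 lower (17.0%). In IMQ+celastrol against IMQ 6 of 20 were higher (14.7%) and 4 lower (16.5%). The median gene here had a log2 ratio of -0.11 for IMQ+celastrol over IMQ. Col13a1 had the largest ratio for IMQ over normal, with 18 UMIs in IMQ and 3 in normal cells, 9.11-fold higher (2.66 to 48.3) in IMQ. Col15a1 had the largest for IMQ+celastrol over IMQ, with 41 UMIs in IMQ+celastrol and 7 in IMQ cells. Col9a3, Col22a1, Col24a1 and Col26a1 also had their highest class level pooled over libraries in Schwann-like cells, on few UMIs. The levels were 17.4 CPM for Col9a3, 4.58 for Col22a1, 26.6 for Col24a1 and 4.58 for Col26a1. Col22a1 had 5 UMIs in IMQ+celastrol and 0 in IMQ and normal cells, and pericyte-like cells had a near-equal 4.10 CPM. Col26a1 had 1 UMI in IMQ+celastrol, 2 in IMQ and 2 in normal cells. Cluster 19, without a class name, had 41 UMIs of Col26a1, at 12.9 CPM in normal cells.

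**Figure D5:**
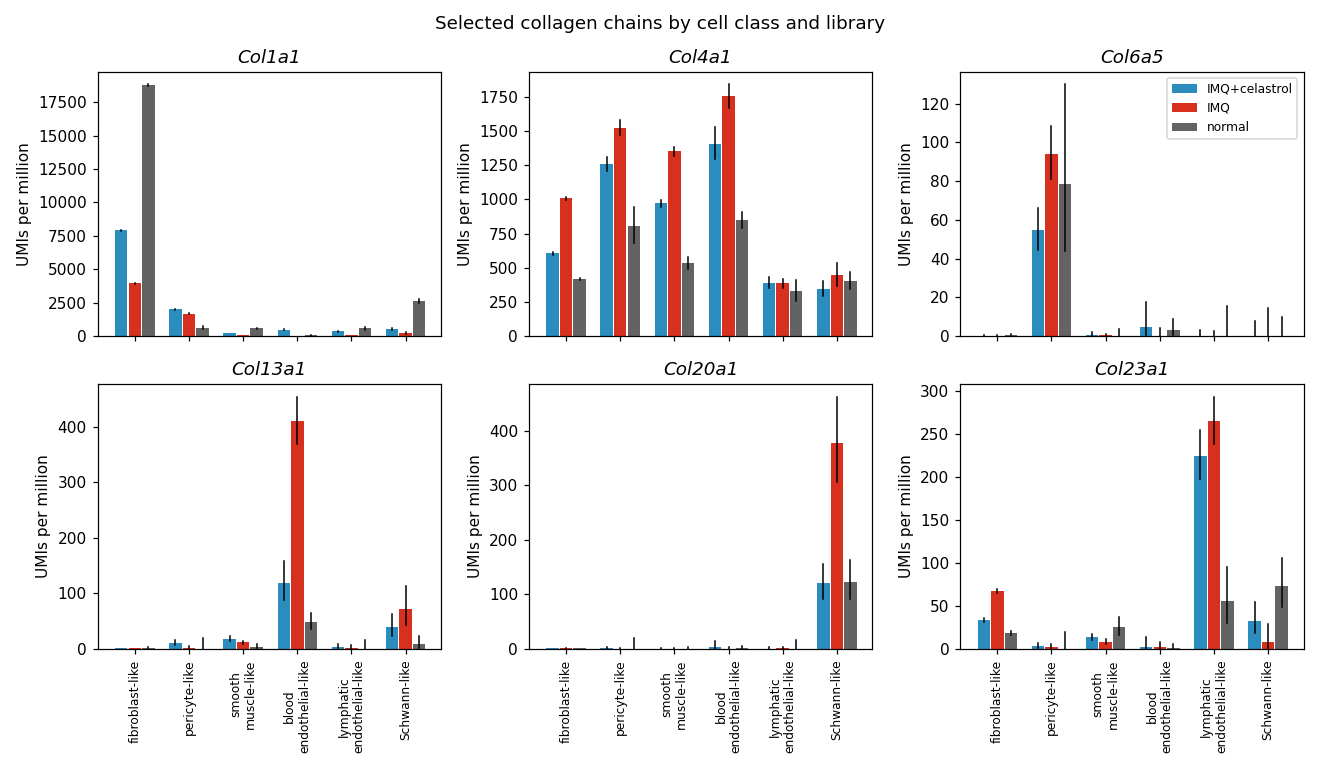
CPM of 6 collagen chains in 6 stromal classes by library; bars start at 0, and black lines are 95% counting intervals. Col1a1 was highest in normal fibroblast-like cells (18751 CPM), Col4a1 and Col13a1 in IMQ blood endothelial-like cells (1752 and 410.5), Col6a5 in IMQ pericyte-like, Col20a1 in IMQ Schwann-like and Col23a1 in IMQ lymphatic endothelial-like cells.

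Outside the stroma, Col27a1, a fibrillar chain of cartilage and other tissues, was highest in T cell-like cells, at 70.9 CPM in IMQ+celastrol, 25 in IMQ and 268 in normal T cell-like cells. It was 10.7-fold lower (8.06 to 14.5) in IMQ than in normal cells and 2.84-fold higher (1.91 to 4.21) in IMQ+celastrol than in IMQ. A UMI of it was found in 14.3% of IMQ+celastrol, 7.78% of IMQ and 48.2% of normal T cell-like cells, at median depths of 2199 UMIs in IMQ+celastrol, 2785 in IMQ and 2925 in normal skin. In the far deeper keratinocyte-like cells the share was at most 1.16%. Of all clusters, the Col27a1 level was highest in cluster 9, with 455 UMIs at 239 CPM pooled over libraries. The part of the mix of clusters within the T cell-like class in the Col27a1 ratios was not tested. In T cell-like cells Col1a1 stood at 122 CPM in IMQ+celastrol, 24.5 in IMQ and 21.7 in normal cells, and in keratinocyte-like cells at 40.2 CPM in IMQ+celastrol, 19 in IMQ and 78.2 in normal cells. Neither class is a known source of type I collagen. Col7a1 in keratinocyte-like cells stood at 77.7 CPM in IMQ+celastrol, 17.9 in IMQ and 46.5 in normal cells, against 65.7 CPM in IMQ+celastrol, 38.8 in IMQ and 118 in normal cells of the fibroblast-like class. Col25a1, Col11a2 and Col2a1 had their highest class levels pooled over libraries outside the stroma, but on very few UMIs. Col25a1 stood at 0.65 CPM in hair follicle keratinocyte-like cells, with 4 UMIs, and Col2a1 at 0.325 CPM there, with 2. Fibroblast-like cells held 55.7% of the Col25a1 UMIs, at 0.554 CPM. Col11a2 stood at 11.2 CPM in mast cell or basophil-like cells, which numbered 13 in IMQ+celastrol, 39 in IMQ and 12 in normal skin.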

How the data were processed

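Single-cell RNA sequencing of dorsal skin gave 1 library each for IMQ+celastrol, IMQ and normal mice. Each deposited matrix holds raw UMI counts by gene and barcode, and its header names Cell Ranger 4.0.0 as the authors' software, per the file headers. The submitters' processing notes list mm10 and GRCm38 as builds. Other upstream steps are not given in the sources used here, and no other columns of per-sample values were present (0). Counts depend on the 3' end annotation used, and the depth per cell was lowest in the normal library.

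Cells with at least 300.0 genes and at most 20% mitochondrial UMIs were kept, which left 6422 IMQ+celastrol, 8008 IMQ and 10428 normal cells. Doublets were scored with Scrublet in scanpy 1.11.5, which marked 92 IMQ+celastrol, 0 IMQ and 182 normal cells. Where fewer than 0.5% of cells were marked, the caller's threshold was replaced by a fixed rate. The 513 top-scoring IMQ cells were thus left out, at 0.8% per 1000 cells. Why the caller marked 0 IMQ cells was not examined. The doublet treatment therefore differed between libraries. The 3 libraries were clustered together on 2000 variable genes, without collagen genes, with 30 principal components, 15 neighbours and the Leiden method (leidenalg 0.10.2, python-igraph 0.11.9) at a resolution of 1.0. Clusters were named from 22 marker lists if at least 3 markers were each seen in 25% of cells, the score was at least 0.25 and 1.2 times the next, and the 10 leading genes did not go against the name. Fibroblast subsets were named from 7 lists. Rebuilt names may differ from the study's own.

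UMIs were summed per library and class and divided by the class total (CPM). Intervals are exact 95% Poisson or conditional binomial intervals (scipy 1.17.1, numpy 2.4.6, pandas 2.3.3, Python 3.11.15), and the ratio code was tested on simulated data. UMIs are counted molecules, but cells of a library share their source, so the intervals understate the true error. A level of 0 was set to a floor of 3 counts for a ratio.

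All members are accounted for. In fibroblast-like cells, values are given for the 3 members of highest level of each type and the 5 of largest and smallest ratio in each comparison, and in other classes for the 3 highest and the extreme ratios. Of 37 genes of collagen assembly the 3 of largest and smallest ratio are named. Col20a1, Col6a5 and other chains singled out by class were chosen after their values were seen. The members and lists were chosen with earlier results of these data known. Alternatives covered denominator, scaling, averaging over cells, doublets, cluster naming, clustering, mix of subsets, free RNA, fold and filter. Figures were drawn with matplotlib 3.10.9.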

Additional observations from a re-analysis of the deposited data

Results flagged for a closer look

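Summed FACIT chains differed in direction between classes for IMQ over normal. The log2 ratio was 0.92 in smooth muscle-like cells and 1.10 in Schwann-like cells, against -1.07 in fibroblast-like cells. For IMQ+celastrol over IMQ, summed FACIT chains had a log2 ratio of -0.81 in Schwann-like cells and 0.67 in fibroblast-like cells. Among the FACIT chains of Schwann-like cells, Col20a1 held 55 UMIs in IMQ+celastrol, 95 in IMQ and 47 in normal skin. They came from 5 IMQ+celastrol, 7 IMQ and 5 normal cells. Col16a1 held 98 UMIs in IMQ+celastrol, 72 in IMQ and 39 in normal cells, and Col12a1 held 48, 39 and 28 in the same order. In IMQ over normal Col16a1 was 2.80-fold higher (1.87 to 4.25) and Col12a1 2.12-fold higher (1.27 to 3.57). Col14a1 went the other way, 1.87-fold lower (0.942 to 3.96). All members summed had a log2 ratio of 0.70 for IMQ over normal in blood endothelial-like cells, from 53 IMQ and 219 normal cells, against -1.26 in fibroblast-like cells. With 1 library per group, none of these differences between classes was tested.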

How the results depend on the processing

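No paired analysis was possible because each group has 1 library and the labels give no shared replicate numbers, and no replicate could be left out. For IMQ over normal, the log2 ratio of summed collagen in fibroblast-like cells, -1.26 as reported, stayed negative in all 11 alternatives. It was -1.31 with collagen UMIs left out of the total, -1.24 with median-of-ratios scaling, -1.43 as a mean over cells, -1.24 with doublets kept, -1.31 with a single doublet rate, -1.06 with the highest-score naming of clusters, -1.29 with each library clustered by itself, -1.11 with an equal mix of subsets (5 subsets) and -1.36 without dermal sheath-like cluster 13. The last alternative was chosen after seeing the data. The equal mix for IMQ over normal left out the remodelling-like subset and took adventitial-like clusters 1 and 11 as 1 subset. Cluster 1 had 1149 normal cells and fewer than 20 in IMQ, and cluster 11 had 91 normal and 307 IMQ cells. The mix inside that subset was thus not evened out. For IMQ+celastrol over IMQ the log2 ratio, 0.69 as reported, stayed positive in all 11, at 0.71 with collagen UMIs left out of the total, 0.54 with median-of-ratios scaling, 0.80 as a mean over cells, 0.67 with a single doublet rate, 0.52 with the highest-score naming, 0.68 with each library by itself, 0.67 with collagen genes allowed in clustering, 0.71 with an equal mix (6 subsets), 0.69 with the free RNA level subtracted and 0.70 without cluster 13.

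Members higher in IMQ than in normal numbered 7 as reported and 4 with an equal mix. Members lower in IMQ+celastrol than in IMQ numbered 5 as reported, 8 with free RNA subtracted, 2 at a fold of 2 and 8 with a filter of 1 UMI. Members higher in IMQ+celastrol than in IMQ numbered 22 as reported and 9 at a fold of 2.

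Single members changed direction for IMQ over normal: Col23a1 to -0.81 with the highest-score naming, Col12a1 to 0.49 with each library by itself and 0.46 without cluster 13, Col4a3 to -0.45, Col4a4 to -0.12 and Col7a1 to 0.047 with an equal mix, and Col20a1 to 0.0805 with free RNA subtracted. For IMQ+celastrol over IMQ, Col23a1 turned to 0.26 with the highest-score naming. Col11a1 turned to -0.67, Col24a1 to -0.20 and Col8a2 to -0.67 with an equal mix. Col7a1 turned to -7.29 with free RNA subtracted, where its IMQ+celastrol level was set to the floor. The level subtracted for Col7a1 can include the keratinocytes' own transcripts. With each library clustered by itself, summed collagen in smooth muscle-like cells turned to -0.16 for IMQ over normal, against 0.56 as reported, and to 0.66 for IMQ+celastrol over IMQ, against -0.14. The cause was not tested. Pericyte-like cells in normal skin and blood endothelial-like cells in IMQ+celastrol were too few for a count of members.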
